A study of Homo sapiens with 3 samples.

Results

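The secreted and matrix-associated factors through which astrocytes act on synapses were examined in cultures derived from H9, an established human embryonic stem cell line. They were the hevin gene SPARCL1, its relative SPARC, the thrombospondin genes THBS1 to THBS4, the glypican genes GPC4 and GPC6, and CHRDL1, which encodes an antagonist of bone morphogenetic proteins (BMPs). All probe sets annotated to only 1 of these symbols were taken, 18 of 54613 non-control probe sets, covering 9 of 19775 genes. RA astrocytes were collected at day 210 after retinoic acid from day 10 to day 21, and FGF8 astrocytes at day 210 after fibroblast growth factor 8 over the same days. Neuroepithelial cells (NE), an early neural progenitor, were collected at day 17 and had received neither morphogen. Differentiation started for all groups from embryoid bodies, once the stem cells had been taken off mouse embryonic fibroblasts. Each group was measured on 1 array, so the differences have no replicates behind them and none was tested.

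Matricellular proteins such as hevin, SPARC and the thrombospondins lie in the extracellular matrix and regulate how cells attach and signal rather than build the matrix. In rodents, thrombospondins from astrocytes induce excitatory synapses through the calcium channel subunit alpha2delta-1, the product of CACNA2D1. In mice, hevin bridges presynaptic neurexin and postsynaptic neuroligin, and SPARC counters its synapse-inducing action. Glypicans, heparan sulphate proteoglycans held to the membrane by a lipid anchor and released from it, recruit AMPA-type glutamate receptors to rodent synapses, and Chrdl1 favours the maturation of those synapses in mice.

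All 9 genes had at least 1 promoter window among the RefSeq sequences (GRCh38.p14), 11 windows in all. The 250 bases upstream of the start are shown for 4 genes: the relatives SPARCL1 and SPARC, both highest in the RA array, THBS2, which was higher in both astrocyte arrays than in NE, and CHRDL1, lowest in the RA array. Sequences run 5′ to 3′ on the gene's strand, which is the minus strand for all 4, and capitals mark matches to TATAAA or GGGCGG on either strand.
SPARCL1, chr4:87529377-87529626: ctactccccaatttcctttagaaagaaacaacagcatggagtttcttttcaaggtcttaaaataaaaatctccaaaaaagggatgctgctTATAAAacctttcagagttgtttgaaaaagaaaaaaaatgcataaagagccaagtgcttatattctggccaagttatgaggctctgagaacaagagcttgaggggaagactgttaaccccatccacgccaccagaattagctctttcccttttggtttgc
SPARC, chr5:151686916-151687165: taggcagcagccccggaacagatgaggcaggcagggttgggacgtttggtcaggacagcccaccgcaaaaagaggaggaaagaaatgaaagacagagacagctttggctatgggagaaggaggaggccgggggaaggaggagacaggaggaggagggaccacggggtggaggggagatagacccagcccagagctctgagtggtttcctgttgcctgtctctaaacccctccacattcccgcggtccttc
THBS2, chr6:169253847-169254096: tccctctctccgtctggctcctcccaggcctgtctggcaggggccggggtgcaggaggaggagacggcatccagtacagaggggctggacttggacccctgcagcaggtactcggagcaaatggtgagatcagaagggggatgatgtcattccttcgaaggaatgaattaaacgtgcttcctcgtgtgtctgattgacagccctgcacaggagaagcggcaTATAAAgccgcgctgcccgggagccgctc
CHRDL1, chrX:110795818-110796067: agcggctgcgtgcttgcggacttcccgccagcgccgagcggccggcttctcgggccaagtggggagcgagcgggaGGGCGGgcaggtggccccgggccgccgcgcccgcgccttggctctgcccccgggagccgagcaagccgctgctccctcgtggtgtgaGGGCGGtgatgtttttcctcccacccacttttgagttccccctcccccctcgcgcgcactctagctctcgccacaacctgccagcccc
TATAAA stood in 10.7% and GGGCGG in 42.6% of 35116 upstream windows of this length, and these letters do not overlap each other. In THBS2 the match to TATAAA began 29 bases before the start, and in SPARCL1 it began 160 bases before it. CHRDL1 held GGGCGG at 175 and 88 bases before the start, and the SPARC window held neither motif. G and C made up 38.8% of the SPARCL1 window, 59.2% of that of SPARC, 60% of that of THBS2 and 73.2% of that of CHRDL1, against a median of 58% over all windows.

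Values below are normalised signals on a linear scale, and log2 differences between them. A signal is comparable between arrays for 1 probe set but not between probe sets or genes. Signals under a floor of 26.4, the median of all non-control values, were raised to it, and a difference from a raised value is given as "at least" so many fold. Where a gene had several probe sets, the brightest stands for it, leaving out the _x_at type where it had another. The other probe sets of the 9 factors are given beside it, but those of further genes only in some cases. Differences of at least 2-fold were counted.

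The cultures carried the marker genes of their labels above the floor, but some of these genes differed little between arrays. Of 11 astrocyte markers, 11 lay above the floor in the RA array, 11 in the FGF8 array and 7 in the NE array, and GFAP had signals of 14574 in RA, 3053 in FGF8 and one under the floor in NE. Of the 11 astrocyte markers, 9 were at least 2-fold higher than in NE in each astrocyte array, beside 18.1% of all genes in RA and 12.8% in FGF8. GJA1 and ALDH1L1 stayed within 2-fold. Of 8 neuroepithelial markers, 6 were at least 2-fold lower in RA than in NE and 5 in FGF8 than in NE, beside 14.6% and 10.2% of all genes. Still, 7 of the 8 remained above the floor in each astrocyte array. NES was 2.06-fold higher in RA than in NE, with a log2 difference of -0.55 on another probe set. SOX2 lay within 2-fold on its main probe set. The ratio of 3' to 5' signal of ACTB, a measure of how complete the labelled RNA was, stood at 6.67 in the RA array, 6.63 in the FGF8 array and 1.33 in the NE array. For GAPDH the ratios were closer to each other, at 1.79 in RA, 1.65 in FGF8 and 0.984 in NE. Spiked hybridisation controls were 2.62-fold brighter in RA than in NE and 2.40-fold brighter in RA than in FGF8. The part of these array differences in the results was not tested.

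Hevin expression was high in the RA culture alone. SPARCL1 had a signal of 6099 in RA astrocytes, 109 in FGF8 astrocytes and 97.3 in neuroepithelial cells. The RA array stood far above the others, and the FGF8 and NE signals were close to each other. SPARCL1 was 62.7-fold higher in RA than in NE (log2 difference 5.97), and 23 of 13339 genes compared had a difference at least as large, itself included. Between the astrocyte cultures it was 55.9-fold higher in RA than in FGF8 (5.80), where 4 of 12958 genes reached that difference. Between FGF8 and NE it differed by 0.16. SPARCL1 is read by 1 probe set, so no other probe set checks it. In bulk RNA, more cells of a type and more RNA per cell cannot be told apart, here and for each gene below.

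SPARC, the matricellular relative that antagonises hevin at mouse synapses, was bright on all arrays and highest in RA, at 9644 in RA astrocytes, 3809 in FGF8 astrocytes and 4602 in neuroepithelial cells. Its second probe set gave 3460, 1024 and 1319 in the same order of arrays. Both probe sets placed RA above the other arrays, which lay close to each other. SPARC was 2.10-fold higher in RA than in NE on the main probe set (log2 difference 1.07) and 2.62-fold on the other (1.39). Against FGF8 it was 2.53-fold higher in RA (1.34) and 3.38-fold on the other probe set (1.76). The FGF8 minus NE difference was -0.27 and -0.36, and the first of these turned to 0.28 when array medians were set equal. SPARC is also a gene of mesenchymal cells. Of 10 mesenchymal markers, 3 lay above the floor in the RA array, 4 in the FGF8 array and 10 in the NE array, with summed signals of 4263, 736 and 11614. In the RA array 4087 of that sum came from the smooth muscle actin ACTA2, while the main probe sets of COL1A1, COL3A1, LUM and DCN were at the floor in both astrocyte arrays, although other probe sets of COL1A1 and DCN were not. COL1A2 had signals of 51.0 in RA, 366 in FGF8 and 1361 in NE. The part of such cells in the SPARC signal was not tested. Endothelial cells make both SPARC and hevin. Of 8 endothelial markers, 1 lay above the floor in the RA array, 2 in the FGF8 array and 3 in the NE array, with summed signals of 153, 106 and 265. On main probe sets the marker above the floor in RA was CLDN5, at 114, other probe sets of PECAM1 exceeded it there too, and CDH5, KDR, TEK, TIE1, VWF and ENG were at the floor in both astrocyte arrays.

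**Figure D1:**
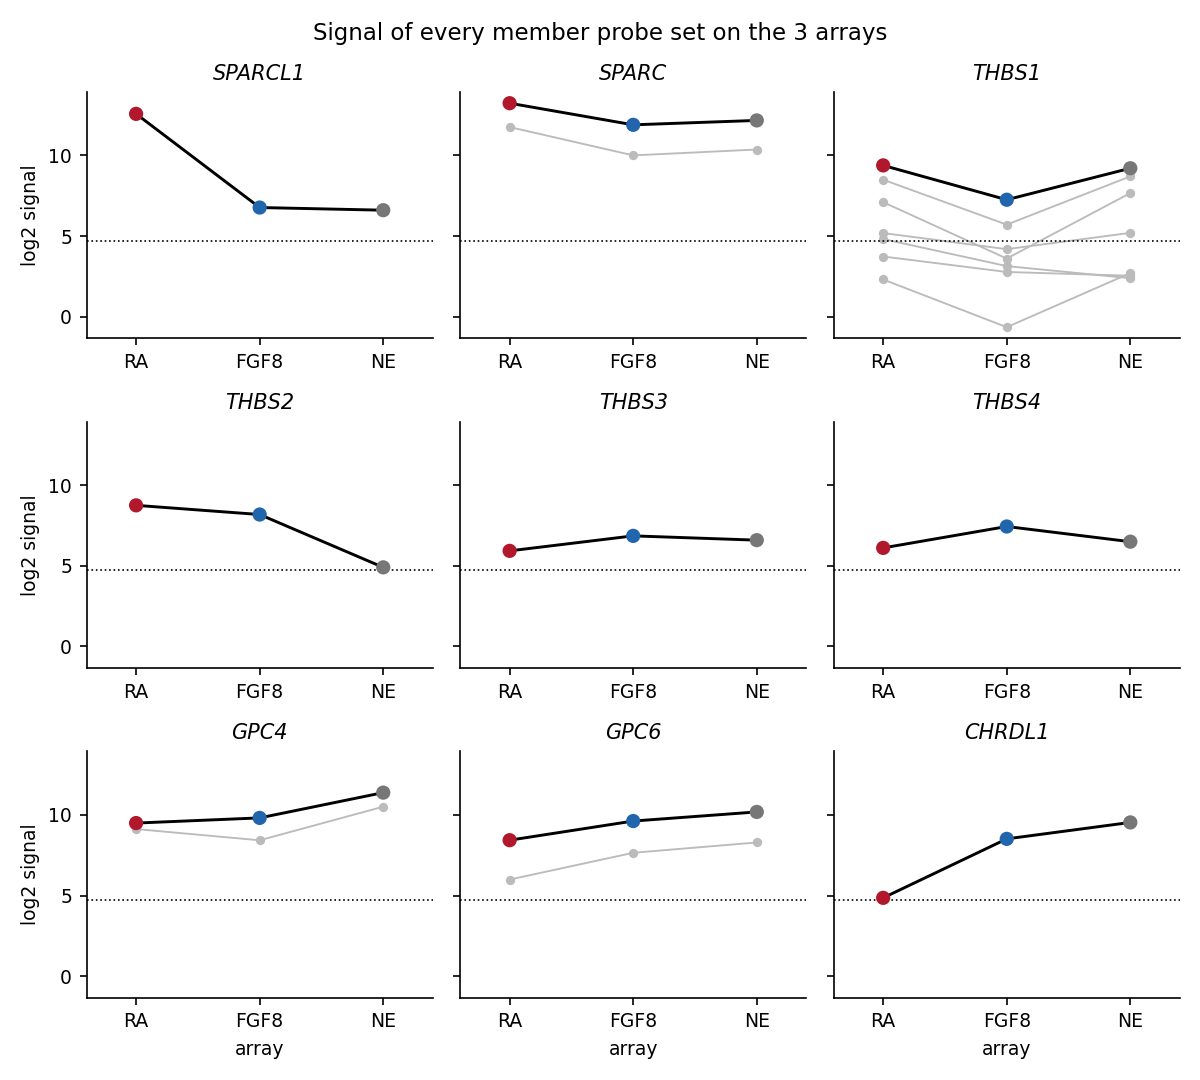
Log2 signal (vertical axis) of all 18 probe sets of the 9 genes on the RA, FGF8 and NE arrays (horizontal axis, 1 array each). Black lines with coloured points are the probe set that stands for the gene, grey lines are its other probe sets, and the dotted line is the floor of 4.72. SPARCL1 is high on the RA array alone, THBS2 is high on both astrocyte arrays, and CHRDL1 lies just above the floor on the RA array.

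Among the thrombospondins, THBS2 was the gene with a large difference in both astrocyte cultures. THBS1 and THBS2 encode the trimeric thrombospondins released by immature rodent astrocytes, and THBS3 and THBS4 encode pentameric ones. THBS2 had a signal of 430 in RA astrocytes, 290 in FGF8 astrocytes and 29.9 in neuroepithelial cells, the last barely above the floor. It was 14.4-fold higher in RA than in NE (log2 difference 3.84), with 160 of 13339 genes reaching that difference, and 9.67-fold higher in FGF8 than in NE (3.27), reached by 149 of 13004 genes. Because the NE signal was so close to the floor, both folds are near to bounds, and with the floor at the 70th percentile NE was at the floor and the differences were at least 2.17 and 1.60. Between RA and FGF8 astrocytes THBS2 differed by 0.57. Its upstream window, printed above, was 1 of 3 among these genes with a match to TATAAA, beside those of SPARCL1 and GPC6.

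THBS1 was instead lowest in the FGF8 culture. On its brightest probe set the signal was 666 in RA astrocytes, 152 in FGF8 astrocytes and 590 in neuroepithelial cells. The next brightest gave 360, 52.3 and 416, and another gave 137, 12.2 and 203. All 3 probe sets put FGF8 lowest and kept RA and NE within 2-fold of each other, with RA minus NE differences of 0.18, -0.21 and -0.56. THBS1 was 3.87-fold lower in FGF8 than in NE (log2 difference -1.95), and 7.95-fold lower on the next probe set (-2.99). It was 4.37-fold higher in RA than in FGF8 (2.13) and 6.89-fold on the next probe set (2.78). Of the other 4 probe sets, 2 lay below the floor on every array, 1 exceeded it only in the RA array, at 28.2, and 1 gave 36.4, 18.2 and 36.8. Leaving out probe sets of the _s_at type leaves only those near or under the floor, with FGF8 at the floor, so that THBS1 was then at least 1.39-fold lower in FGF8 than in NE and at least 1.38-fold higher in RA than in FGF8. With the mean of all 7 probe sets FGF8 was at the floor too, and the bound on the FGF8 minus NE difference was -0.77.

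The pentameric thrombospondins lay within 2-fold of NE in both astrocyte cultures. THBS3 had a signal of 60.8 in RA astrocytes, 116 in FGF8 astrocytes and 96.3 in neuroepithelial cells. THBS4 had 69.1, 173 and 90.1 in the same order. Both were highest in FGF8 and lowest in RA. THBS4 was 2.51-fold lower in RA than in FGF8 (log2 difference -1.33), and the RA value was at the floor when this was raised to the 70th percentile (-0.86, a bound). THBS3 differed by -0.93 between RA and FGF8, and passed 2-fold with the deposited values (-1.04) and with equal array medians (-1.09). THBS4 was 0.94 higher in FGF8 than in NE and passed 2-fold with equal array medians (1.26). Each has 1 probe set. COMP, the fifth thrombospondin gene, was at the floor on all arrays.

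The glypicans were brightest in the neuroepithelial cells. GPC4 had a signal of 719 in RA astrocytes, 898 in FGF8 astrocytes and 2661 in neuroepithelial cells, and its second probe set gave 556, 343 and 1453. GPC4 was 3.70-fold lower in RA than in NE (log2 difference -1.89) and 2.96-fold lower in FGF8 than in NE (-1.57), with -1.39 and -2.08 on the second probe set. With array medians set equal the FGF8 minus NE difference was -0.97, just within 2-fold. The probe sets disagreed on the order of the astrocyte cultures, at -0.32 and 0.70 for RA minus FGF8. GPC6 had a signal of 345 in RA astrocytes, 784 in FGF8 astrocytes and 1161 in neuroepithelial cells, and its second probe set gave 63.5, 201 and 313. Both GPC6 probe sets were lowest in RA. GPC6 was 3.37-fold lower in RA than in NE (-1.75, and -2.30 on the second probe set) and 2.27-fold lower in RA than in FGF8 (-1.19 and -1.66). In FGF8 against NE it stood at -0.57, which became 0.0037 with equal array medians.

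CHRDL1, the secreted BMP antagonist, was close to the floor in the RA culture. Its signal was 29.0 in RA astrocytes, 365 in FGF8 astrocytes and 739 in neuroepithelial cells. The RA value lay just above the floor, while the other arrays were well above it. CHRDL1 was 25.5-fold lower in RA than in NE (log2 difference -4.67), and 59 of 13339 genes were at least that much lower. It was 12.6-fold lower in RA than in FGF8 (-3.66), a difference reached by 47 of 12958 genes. These folds are close to bounds, and with the floor at the 70th percentile RA was at the floor and the differences were bounds of -2.95 and -1.94. With the deposited values RA was at the floor too, with bounds of -4.76 and -3.81. In FGF8 against NE it was 2.03-fold lower (-1.02), but within 2-fold with the deposited values (-0.94) and with equal array medians (-0.48). CHRDL1 is read by 1 probe set. Its nearest relative in name, CHRDL2, had signals of 35.8 in RA astrocytes and 3.50 and 2.53 in FGF8 astrocytes and neuroepithelial cells, both below the floor.

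**Figure D2:**
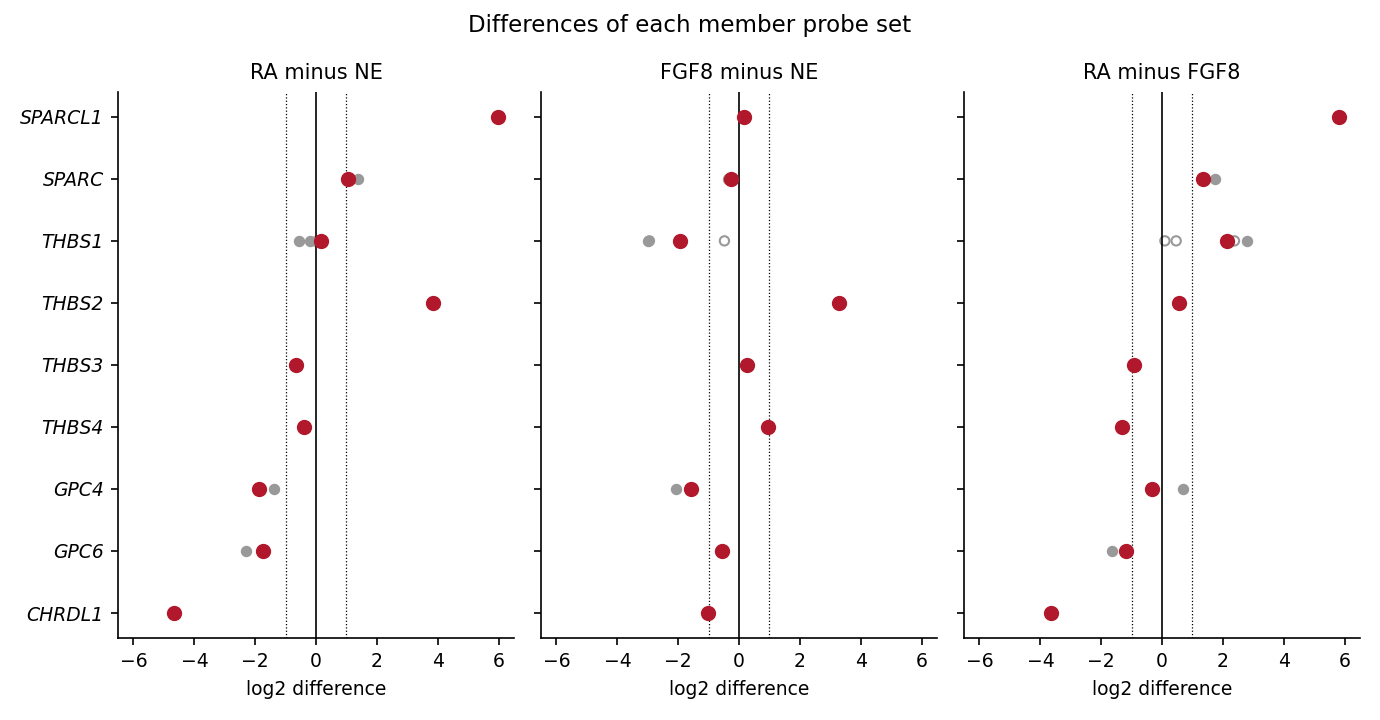
Log2 differences (horizontal axis) of each probe set of the 9 genes (rows) for RA minus NE, FGF8 minus NE and RA minus FGF8. Red points are the probe set that stands for the gene, grey points its other probe sets, open points bounds set by the floor, and dotted lines mark 2-fold; probe sets at the floor on both arrays have no point. SPARCL1 lies at 5.97 and 5.80 against NE and FGF8, and the THBS1 probe sets lie below 0 in FGF8 minus NE.

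Counted together, 3 of the 9 genes were at least 2-fold higher in RA than in NE (SPARCL1, SPARC, THBS2) and 3 lower (GPC4, GPC6, CHRDL1), where 18.1% of all genes compared were higher and 14.6% lower. In FGF8 against NE 1 was higher (THBS2) and 3 were lower (THBS1, GPC4, CHRDL1), where 12.8% of all genes were higher and 10.2% lower. In RA against FGF8 3 were higher (SPARCL1, SPARC, THBS1) and 3 lower (THBS4, GPC6, CHRDL1), where 9.69% of all genes were higher and 7.86% lower. The 9 genes' median log2 differences were -0.38 for RA minus NE, -0.27 for FGF8 minus NE and -0.32 for RA minus FGF8, beside 0.07, 0.05 and 0.01 over all genes. With equal array medians the medians over all genes were 0.35, 0.42 and -0.04, and the 9 genes' FGF8 minus NE median turned to 0.28. The comparisons with NE share its array, so their values are set side by side and not counted as repeats of each other. THBS2 was higher and GPC4 and CHRDL1 were lower than in NE in both astrocyte cultures, although the FGF8 differences of GPC4 and CHRDL1 came within 2-fold with equal array medians.

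**Figure D3:**
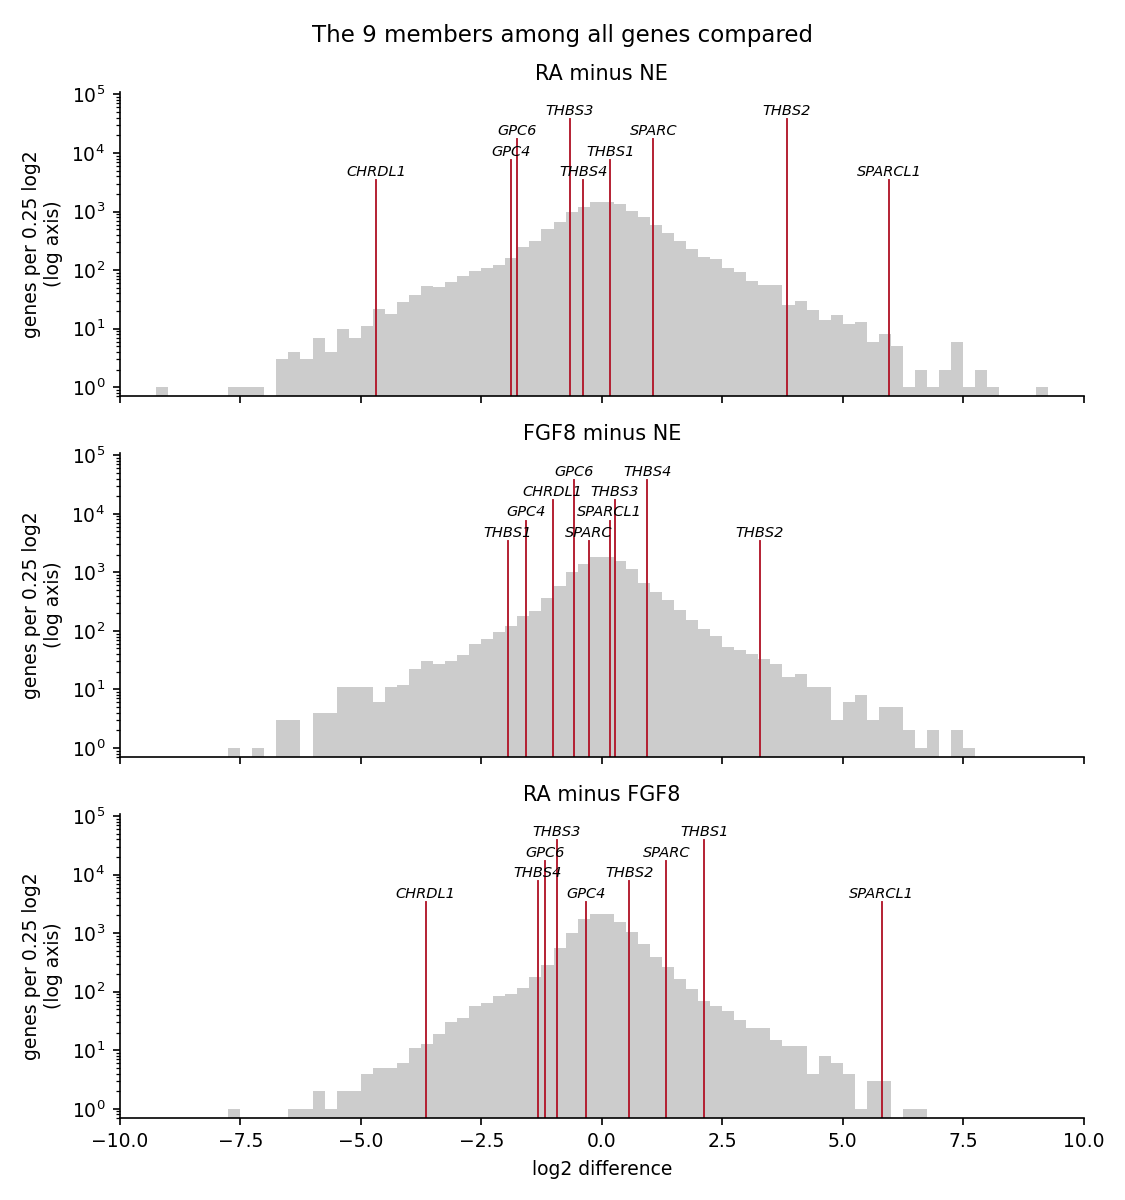
Number of genes per 0.25 log2 units of difference (grey bars, vertical log axis) for RA minus NE, FGF8 minus NE and RA minus FGF8, with a red line at the difference of each of the 9 genes. SPARCL1 lies far right in both comparisons with RA and near 0 in FGF8 minus NE, and CHRDL1 lies far left in both comparisons with RA.

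Genes whose 3 values most resembled those of a factor were found by the smallest distance between log2 values after subtracting each gene's own mean over the 3 arrays. For SPARCL1 they were HOXB7, FRMPD3, ESPN, HAS3 and PTPRE, at distances of 0.62 to 0.94 log2 units. For THBS1 they were CAV2, CAV1, OAF, FILIP1 and VASP, at 0.14 to 0.17. For CHRDL1 they were PRDM16, TTK, HJURP, NMU and BIRC5, at 0.13 to 0.26. Likeness over 3 arrays describes these arrays only, and several of these genes were at the floor on at least 1 of them.

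Receptors and binding partners of thrombospondins and hevin differed from gene to gene, and differences without a fold are on the log2 scale here and below. Of 16 compared between RA and NE, 5 were higher and 4 lower, with a median of 0.43 beside 0.07 over all genes. Of 14 compared between FGF8 and NE, 5 were higher and 1 lower, with a median of 0.56 beside 0.05. With equal array medians 8 were higher and 4 lower in RA than in NE, but the median over all genes was then 0.35, against 0.07. No shares of all genes were counted at that setting, so the change from 5 to 8 says nothing particular to these genes. Under the main scaling, 18.1% of all genes were higher and 14.6% lower in RA than in NE, and 12.8% and 10.2% in FGF8 than in NE. CACNA2D1, the thrombospondin receptor, had a signal of 49.1 in RA astrocytes, 531 in FGF8 astrocytes and 228 in neuroepithelial cells. FGF8 was highest and RA lowest of the arrays. CACNA2D1 was 4.65-fold lower in RA than in NE (-2.22), 2.33-fold higher in FGF8 than in NE (1.22), and 10.8-fold lower in RA than in FGF8 (-3.44). It was compared on 1 probe set, so no other checks it. The other alpha2delta gene above the floor in NE, CACNA2D2, was at least 5.61-fold lower in both astrocyte cultures. The scavenger receptor gene CD36, another thrombospondin receptor, was at the floor on all arrays. CD47, a further thrombospondin receptor, was 0.79 higher in RA than in NE, with -0.02 on its lowest probe set, and 1.20 higher in FGF8 than in NE, with 0.42 on its lowest.

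LRP1, an endocytic receptor that clears thrombospondins, had signals of 468 in RA astrocytes, 97.5 in FGF8 astrocytes and 63.3 in neuroepithelial cells. It was 2.89 higher in RA than in NE, with 2.08 on another probe set, and 2.27 higher in RA than in FGF8. The integrin subunit ITGB5 was 2.16 higher in RA and 1.83 higher in FGF8 than in NE, with 1.34 and 0.59 on its lowest probe sets, and ITGA6 stood at -3.26 in RA minus NE and -3.36 in RA minus FGF8. The postsynaptic hevin partner NLGN1 had signals of 692 in RA astrocytes, 343 in FGF8 astrocytes and 243 in neuroepithelial cells, 1.51 higher in RA than in NE and 0.50 higher in FGF8 than in NE. NLGN2 was 1.85 higher in RA than in NE, while another probe set gave -0.19. Of the presynaptic neurexins, NRXN3 stood at -2.28 in RA minus NE, with -0.17 on another probe set, and at 1.14 in FGF8 minus NE, with others from 0.41 to 1.51. NRXN2 was 2.07 higher in FGF8 than in NE, with 0.28 on another probe set, and at the floor in RA.

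Genes linked to glypican action were in part higher in astrocytes. Of 13 compared in each case, 7 were higher and 1 lower in RA than in NE (median 1.02 beside 0.07 over all genes). In FGF8 against NE 6 were higher and 2 lower (0.56 beside 0.05). The shares of all genes were 18.1% higher and 14.6% lower in RA, and 12.8% and 10.2% in FGF8. GRIA2, an AMPA receptor subunit gene, had signals of 1494 in RA astrocytes, 2723 in FGF8 astrocytes and 15.1 in neuroepithelial cells, below the floor. GRIA2 was at least 56.7-fold higher in RA and at least 103-fold higher in FGF8 than in NE, with a log2 difference of at least 0.03 in FGF8 on its lowest probe set. The subunit gene GRIA3 was 25.8-fold higher in RA and 15.6-fold higher in FGF8 than in NE, but its lowest probe sets gave log2 differences of 0.17 and 1.03. GRIA1 was 6.47-fold and 3.79-fold higher, with 1.38 and 1.09 on its other probe set. LRRTM2, a postsynaptic adhesion molecule, was at least 17.1-fold higher in RA and at least 24.7-fold higher in FGF8 than in NE. LRRTM4, which binds glypicans at rodent synapses, was dim at 23.7 in RA astrocytes, 36.7 in FGF8 astrocytes and 48.6 in neuroepithelial cells. PTPRS, a presynaptic phosphatase that binds glypican 4, was 0.58 higher in RA and 0.56 higher in FGF8 than in NE, with -0.21 and 0.09 on its lowest probe sets. Its relative PTPRD stood at 1.16 in RA minus NE, with -0.63 on its lowest probe set, and at -1.96 in FGF8 minus NE. The AMPA receptor clustering pentraxin NPTX2 was at least 5.96-fold lower in RA and 3.25-fold lower in FGF8 than in NE, and NPTX1 differed by 1.39 in RA minus NE and by -0.05 in FGF8 minus NE.

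Neuronal markers stood beside these receptor genes as follows. Of 10, 7 lay above the floor in each astrocyte array and 9 in the NE array, with summed signals of 26447 in RA, 24534 in FGF8 and 17423 in NE. Such sums weigh the brightest probe sets most, among them the growth cone gene GAP43 at 12114 in RA, 5168 in FGF8 and 922 in NE. The synaptic vesicle gene SYT1 had 2060, 405 and 631 in the same arrays. STMN2, a gene of young neurons, stood at -3.87 in RA minus NE and ELAVL4, a neuronal RNA-binding protein gene, at -3.50, and both were also lower in FGF8 than in NE. DCX, a microtubule protein of young neurons, had signals of 583 in RA astrocytes, 6738 in FGF8 astrocytes and 2058 in neuroepithelial cells. RBFOX3 and the main probe set of SYN1, genes of mature neurons, were below the floor in both astrocyte arrays, while another SYN1 probe set exceeded it in FGF8. The part of neurons in the receptor signals was not tested.

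BMP ligands, receptors, antagonists and targets, among which CHRDL1 acts, were mostly lower in astrocytes. Of 18 compared between RA and NE, 11 were lower and 2 higher (median -1.42 beside 0.07 over all genes). Of 16 compared between FGF8 and NE, 11 were lower and 2 higher (-1.84 beside 0.05). All genes had shares of 14.6% lower and 18.1% higher in RA, and 10.2% and 12.8% in FGF8. Among other antagonists, GREM1 was at least 22.7-fold lower in RA and 6.39-fold lower in FGF8 than in NE, NOG at least 7.87-fold and 3.86-fold lower, and FST 3.17-fold and 4.01-fold lower. TWSG1 lay within 2-fold (0.14 and -0.35), and CHRD was at the floor in NE and only just above it in the astrocytes. The ligand BMP4 was at least 9.95-fold lower in both. The BMP target ID1 was 25.9-fold lower in RA and at least 60.1-fold lower in FGF8 than in NE. The receptor genes BMPR1B and BMPR2 went the other way on their main probe sets. BMPR1B was 2.52 higher in RA and 1.16 higher in FGF8, and BMPR2 1.07 and 1.14 higher. Other probe sets gave -0.51 for BMPR2 in RA minus NE and -0.07 for BMPR1B in FGF8 minus NE. The receptor gene BMPR1A had no probe set among those used. Between RA and FGF8, ID3 was 2.46 higher in RA.

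**Figure D4:**
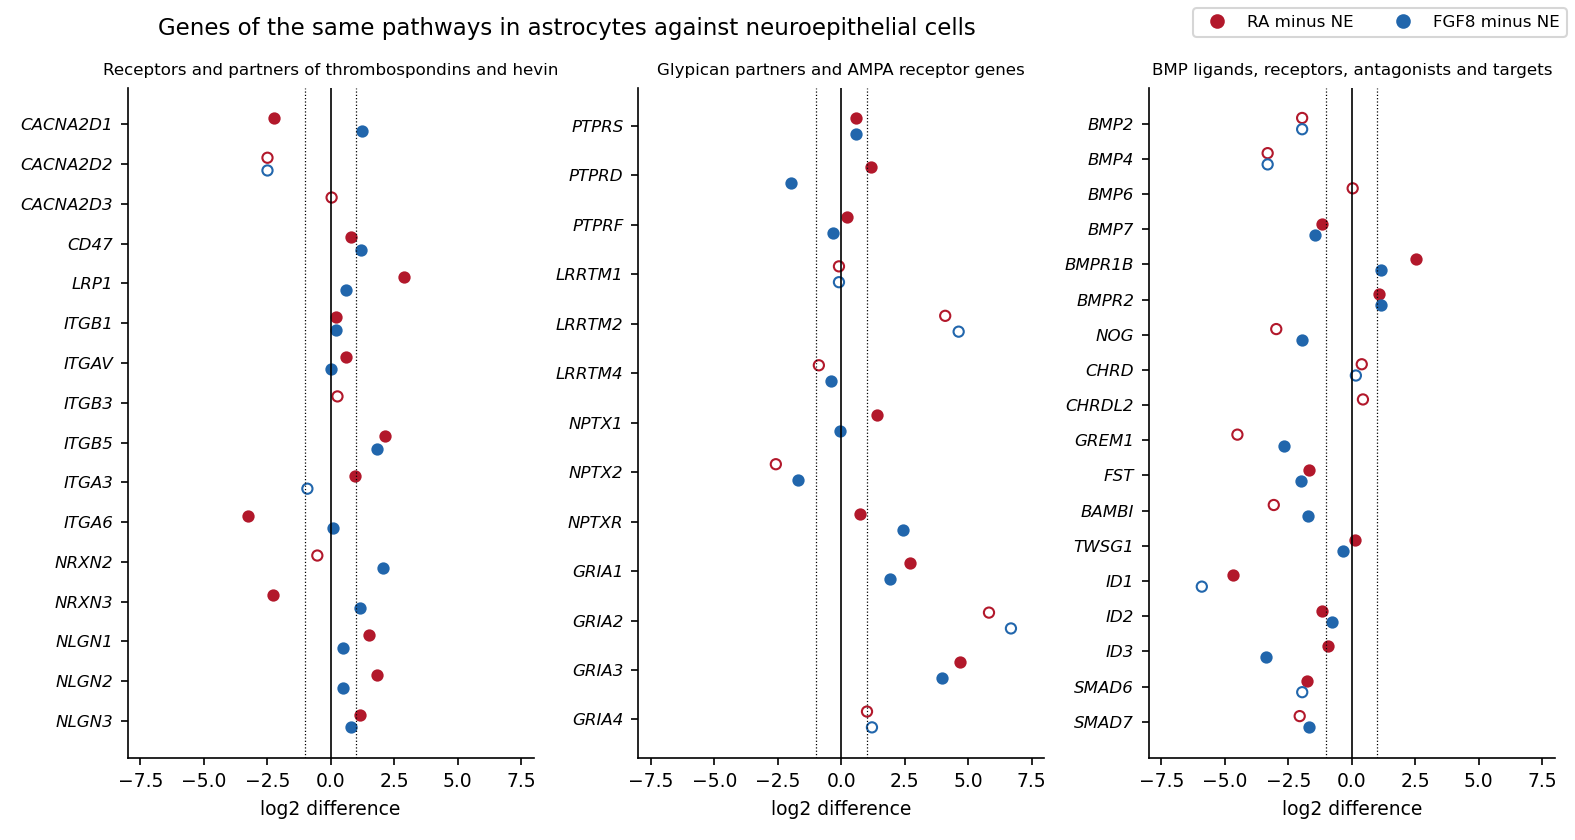
Log2 differences (horizontal axis) of genes of the same pathways, RA minus NE in red and FGF8 minus NE in blue, with open points for bounds set by the floor and dotted lines at 2-fold. Genes at the floor on all arrays have no row. Each gene is shown by its main probe set only. CACNA2D1, NRXN3 and PTPRD lie past 2-fold on opposite sides in the astrocyte cultures, and BMP4, GREM1, FST and ID1 lie left of 0 in both.

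Relatives of the 9 genes were no more uniform. Of 8 compared in each case, 2 were higher and 2 lower in RA than in NE (median -0.06 beside 0.07 over all genes). With equal array medians that median was 0.20, beside 0.35 over all genes. In FGF8 against NE 4 were higher and 2 lower (0.76 beside 0.05). Over all genes, 18.1% were higher and 14.6% lower in RA, and 12.8% and 10.2% in FGF8. In the SPARC family, SMOC1 had signals of 537 in RA astrocytes, 3299 in FGF8 astrocytes and 544 in neuroepithelial cells, so it was high in FGF8 where SPARCL1 was high in RA. SPOCK2, a brain proteoglycan of that family, had 1005, 111 and 32.6 and was 4.94 higher in RA than in NE, with 1.09 on another probe set. SPOCK1 stood at -4.48 in RA minus NE and -2.79 in FGF8 minus NE. Among glypicans, GPC1 was 2.94 higher in RA and 1.68 higher in FGF8 than in NE, with 1.62 and 0.43 on another probe set, the opposite direction to GPC4. GPC3 was 16.2-fold lower in RA than in NE and at least 53-fold lower in FGF8 than in NE, and GPC5 was at the floor on all arrays.

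Of 8 other matricellular genes compared, 3 were higher and 3 lower in RA than in NE, and 2 were higher and 5 lower in FGF8 than in NE. Among all genes 18.1% were higher and 14.6% lower in RA, and 12.8% and 10.2% in FGF8. The medians of the 8 genes were -0.45 and -1.76, beside 0.07 and 0.05 over all genes. With equal array medians the first turned to 0.09, beside 0.35 over all genes. Tenascin C (TNC) was 2.71 higher in RA and 2.81 higher in FGF8 than in NE. CCN1, a growth factor-induced matricellular protein, had signals of 1692 in RA astrocytes, 394 in FGF8 astrocytes and 1821 in neuroepithelial cells, the same order of FGF8 below the others as THBS1. Osteopontin (SPP1) had 561 in RA astrocytes, 19.1 in FGF8 astrocytes, below the floor, and 1157 in neuroepithelial cells. Between RA and FGF8, 4 of 7 were higher in RA and 0 lower, with a median of 1.80 beside 0.01 over all genes. All genes had shares of 9.69% higher in RA and 7.86% lower.

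Of 13 other astrocyte genes acting on synapses compared between RA and NE, 7 were higher and 1 lower, and of 14 between FGF8 and NE, 5 were higher and 2 lower. NLGN1 and NLGN2, already counted among the hevin partners, are counted in this list again. Their medians were 1.51 and 0.68, beside 0.07 and 0.05 over all genes. The shares of all genes were 18.1% higher and 14.6% lower in RA, and 12.8% and 10.2% in FGF8. MEGF10, a receptor with which mouse astrocytes engulf synapses, was 2.39 higher in RA and 2.80 higher in FGF8 than in NE. TGFB2 was 3.32 higher in RA and 3.08 higher in FGF8 on its main probe set, and -0.18 in both comparisons on the lowest of its others. TGFB1, a synapse-inducing factor that THBS1 can activate, had signals of 358 in RA astrocytes, 61.1 in FGF8 astrocytes and 53.2 in neuroepithelial cells, a RA minus NE difference of 2.75 that was 0.40 on another probe set. NCAN, a brain matrix proteoglycan, was 4.55 higher in FGF8 than in NE and stood at -3.72 in RA minus FGF8. PTN, also in this list, was not among the genes compared, because its main probe set was at the floor on all arrays. On 3 other PTN probe sets the differences were 2.69 to 3.14 in RA minus NE and 1.66 to 1.79 in FGF8 minus NE. Of 7 proteases of matrix proteins compared, 3 were higher and 2 lower in RA than in NE (median -0.01 beside 0.07 over all genes). With equal array medians that median was 0.43, beside 0.35 over all genes. In FGF8 against NE 2 proteases were higher and 3 lower (-0.31 beside 0.05). These counts stand against the same shares of all genes. Among them CTSB was 2.28 higher in RA and 1.10 higher in FGF8 than in NE. ADAMTS4, which cleaves hevin, lay within 2-fold in all 3 comparisons, and MMP3 was at the floor on all arrays.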

How the data were processed

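Total RNA was extracted with Trizol, cleaned on a column and biotin-labelled, per the labels' protocols, and was measured on 3 Affymetrix human arrays. The deposited table holds 54675 probe sets, each with a linear intensity per array. Each array's mean, without the lowest and highest 2%, was 150.0, so the arrays had been scaled before deposit. How probe signals were summarised is not given in these sources. The 54613 non-control probe sets were quantile normalized and brought to log2 (Python 3.11.15, numpy 2.4.6, pandas 2.3.3). Genes came from GEO's platform annotation, with 41091 probe sets of 1 symbol, 1801 of several and 11721 of none, and only the first were used. A gene took its brightest probe set, leaving out the _x_at type where it had another. The functions were tested on simulated data. With 1 array per group nothing was tested. The genes and lists were chosen with earlier results of these data known. From each list up to 4 genes per direction with the largest differences could be named, besides CACNA2D1, NLGN1, PTPRS and LRRTM4, and others named to describe a pattern were chosen after their values were seen. Alternatives were other scalings, floors, probe set rules and size thresholds. Depth has no meaning for arrays, and their number limits the precision.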

Additional observations from a re-analysis of the deposited data

Results flagged for a closer look

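Of 151 genes in the lists, 5 lay at least 2-fold from NE in opposite directions in the astrocyte cultures, beside 85 of 12605 genes in all (0.674%). The 151 include genes at the floor that could not be counted, while the 12605 all had a value in both comparisons. Of the 9 synaptogenic factors 0 did, a count that this low share makes uninformative. The comparisons share the NE array, and the difference was not tested. CACNA2D1, compared on 1 probe set, stood at -2.22 in RA minus NE and 1.22 in FGF8 minus NE, and RA minus FGF8 was -3.44. NRXN3 stood at -2.28 and 1.14, with RA minus FGF8 at -3.42. On other NRXN3 probe sets RA minus NE reached only -0.17 and RA minus FGF8 only -0.59. PTPRD stood at 1.16 and -1.96, with RA minus FGF8 at 3.12. Its lowest probe set gave -0.63 in RA minus NE, the same direction as in FGF8 minus NE. ADAMTS5, a matrix protease at the floor in FGF8, stood at 1.33 and -1.56, the second a bound, with RA minus FGF8 at least 2.88. Another of its probe sets gave -0.78 in FGF8 minus NE. DCX stood at -1.82 and 1.71, with RA minus FGF8 at -3.53.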

How the results depend on the processing

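Each gene's difference was recomputed under 7 alternatives of scaling, floor and probe set, 188 values in all. In 178 the gene stayed on the same side of 2-fold, in 10 it did not, and no difference past 2-fold changed sign. In FGF8 against NE, genes counted as higher numbered 2 with equal array medians and 2 at a size of 1.5-fold, against 1, and genes counted as lower numbered 1 with equal array medians and 0 at 4-fold, against 3. At 4-fold 1 gene was lower in RA than in NE and 1 lower in RA than in FGF8, against 3 each. The 4-fold and 1.5-fold counts follow from the threshold itself. No shares of all genes were counted at these alternative settings, so these counts say nothing particular to the 9 genes. With equal array medians the FGF8 minus NE median over all genes was 0.42, against 0.05 under the main scaling. For equal array medians, which did not move all 9 genes alike, the cause was not tested. SPARCL1 ranged from 5.97 to 6.46 in RA minus NE and from 5.80 to 6.05 in RA minus FGF8. CHRDL1 ranged from -4.76 to -2.95 and from -3.87 to -1.94 in the same comparisons, where the values nearest 0 and the -4.76 are bounds. No paired analysis was possible because each group has 1 array. Signals near the floor limit THBS2 in NE and CHRDL1 in RA.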
